A study of Mus musculus with 8 samples.

Results

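The 8 arms of 4 miRNA hairpins that are known from blood leukocytes, miR-223, miR-142a, miR-150 and miR-342, were followed in mouse kidney after lipopolysaccharide (LPS, a bacterial outer-membrane component). They were chosen by name, as the 8 miRNAs listed as mmu-miR-223-3p, mmu-miR-223-5p, mmu-miR-142a-3p, mmu-miR-142a-5p, mmu-miR-150-5p, mmu-miR-150-3p, mmu-miR-342-3p and mmu-miR-342-5p, and make up 8 of the 1881 miRNAs on the array. The LPS group held 4 kidneys of mice injected intraperitoneally with 10 µg LPS per g of body weight (acute kidney injury in sepsis being what is modelled), and the sham group 4 kidneys of mice injected with saline; all were collected 24 h later. The labels give no strain, sex or age, and they number the samples without stating that each came from a separate animal. The p-values therefore reflect the variation among the 8 samples, which may be technical. Total RNA from 30 mg of kidney tissue per sample was labelled with Cy3 and hybridised to Agilent miRNA arrays, 1 sample per array.

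A mature miRNA guides the silencing complex to messenger RNAs through its seed, and each hairpin yields a 5p and a 3p arm of which usually only 1 is retained in quantity. MiR-223 is known as a miRNA of the myeloid lineage, of neutrophils, monocytes and macrophages, where it restrains granulocyte production and activation. MiR-142 is found in nearly all blood lineages, miR-150 is most abundant in mature B and T lymphocytes, where it represses the transcription factor Myb, and miR-342 is known from lymphoid and other blood cells. In kidney tissue these miRNAs are read from a mixture of resident, infiltrating and intravascular blood cells, and a change in the number of such cells cannot be told apart from a change in miRNA per cell.

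The mature sequences show what the probes of the matched members read and whether these members share a seed. RefSeq (build GRCm38.p6) matched 7 of the 8 members, miR-150-5p being named only. The seed and probes of miR-150-5p were therefore not compared. In each mature sequence, 5′ to 3′, the capitals mark the seed, bases 2 to 8.
mmu-miR-223-3p: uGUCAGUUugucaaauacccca
mmu-miR-223-5p: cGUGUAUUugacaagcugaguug
mmu-miR-142a-3p: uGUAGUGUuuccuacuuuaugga
mmu-miR-142a-5p: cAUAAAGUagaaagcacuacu
mmu-miR-342-3p: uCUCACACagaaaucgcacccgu
mmu-miR-342-5p: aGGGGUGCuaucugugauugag
mmu-miR-150-3p: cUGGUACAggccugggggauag
No 2 of these 7 shared a seed, and 0 other mouse miRNAs of the table had the seed of any of them.

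The hairpins of Mir223 and Mir342 place a detected arm beside an undetected arm of the same transcript, while both arms of Mir142 were detected. In these sequences the capitals mark the 5p arm, first, and the 3p arm.
Mir223: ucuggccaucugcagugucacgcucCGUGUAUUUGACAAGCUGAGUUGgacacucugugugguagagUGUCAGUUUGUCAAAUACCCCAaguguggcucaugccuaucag
Mir142: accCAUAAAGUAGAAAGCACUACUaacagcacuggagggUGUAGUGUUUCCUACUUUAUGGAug
Mir342: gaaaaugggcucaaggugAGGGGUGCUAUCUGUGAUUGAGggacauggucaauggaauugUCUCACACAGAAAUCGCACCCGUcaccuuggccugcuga
On GRCm38.p6, Mir223 lies on the plus strand of chromosome X from 96242817 to 96242926, inside the annotated non-coding gene F630028O10Rik. Mir142 lies on the plus strand of chromosome 11 from 87756864 to 87756927, with Mir142b on the opposite strand, and its nearest protein-coding gene is Tspoap1. Mir342 lies on the plus strand of chromosome 12 from 108658620 to 108658718, within the span of Evl, a regulator of the actin cytoskeleton. Mir150 lies on chromosome 7 from 45121757 to 45121821.

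The array held 30 spots for every member, spread over 2 to 4 probes. For the 7 matched members each probe was the exact reverse complement of its whole miRNA or of a stretch up to the 3′ end, so arms of a hairpin were read by different probes. For miR-223-3p, as an example, the probes were tggggtatttgacaaactga, which pairs with bases 3 to 22, and tggggtatttgacaaactgac, which pairs with bases 2 to 22. Signals of different miRNAs cannot be ranked as amounts, because their probes differ in length and binding, and only changes of a miRNA or of a ratio are compared here.

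In all, 5 members were above background, meaning that more than 50% of the spots of at least 1 probe were well above it, on all 8 arrays: miR-223-3p, both arms of miR-142a, miR-150-5p and miR-342-3p. The other 3, miR-223-5p, miR-150-3p and miR-342-5p, were not well above background on any of the 8 arrays, by this rule or by the call of the scanner software, and have no fold. Thus 1 arm was detected for miR-223, miR-150 and miR-342, and both for miR-142a. The antisense miR-142b was not well above background on any of the 8 arrays either.

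The arrays differed little in quality. Between 15.8% and 17.5% of spots were well above background, no non-control spot was saturated, and 336 to 375 miRNAs were detected per array. All 6 listed kidney tubule miRNAs were above background on all arrays, and 4 miRNAs of liver, brain and muscle on none. All arrays lay on 1 slide with sham in row 1 and LPS in row 2, which means that an effect of slide row cannot be told apart from that of LPS. Values are log2 signals after division by each array's 75th percentile. A miRNA was tested if it was detected on all arrays of either group.

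MiR-223-3p, the myeloid member, was the member that rose. Its log2 signal was -0.93, -1.20, -1.27 and -1.21 in sham replicates 5, 6, 7 and 8, and -0.15, -0.27, -0.42 and -0.32 in LPS replicates 6, 10, 11 and 12. All 4 LPS kidneys lay above all 4 sham kidneys, and sham replicate 5 was the highest of its group. The difference was 0.86 ± 0.09 (SE, 95% interval 0.65 to 1.07, limma adjusted p = 0.000303), a 1.81-fold higher level from -1.15 ± 0.15 to -0.29 ± 0.11 (SD, n = 4 per group). It ranked 22 of 338 tested miRNAs by difference, and 11.2% of them had a larger difference in either direction.

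Both probes of miR-223-3p gave the rise. The probe pairing with bases 2 to 22 differed by 0.91 and the probe pairing with bases 3 to 22 by 0.77, each without overlap between groups. The 15 spots of a probe on 1 array varied by 5.14% and 6.52% (median coefficient of variation over arrays). Raw signals ran from 133 to 314 for the brighter and from 72.2 to 146 for the dimmer probe, all above background.

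The call held under all 25 alternatives, with differences from 0.58 to 0.94 and adjusted p-values up to 0.00173. The lowest value, 0.58, came with the normexp background correction, which adds an offset of 50 to each signal, and the highest, 0.94, without scaling.

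**Figure D1:**
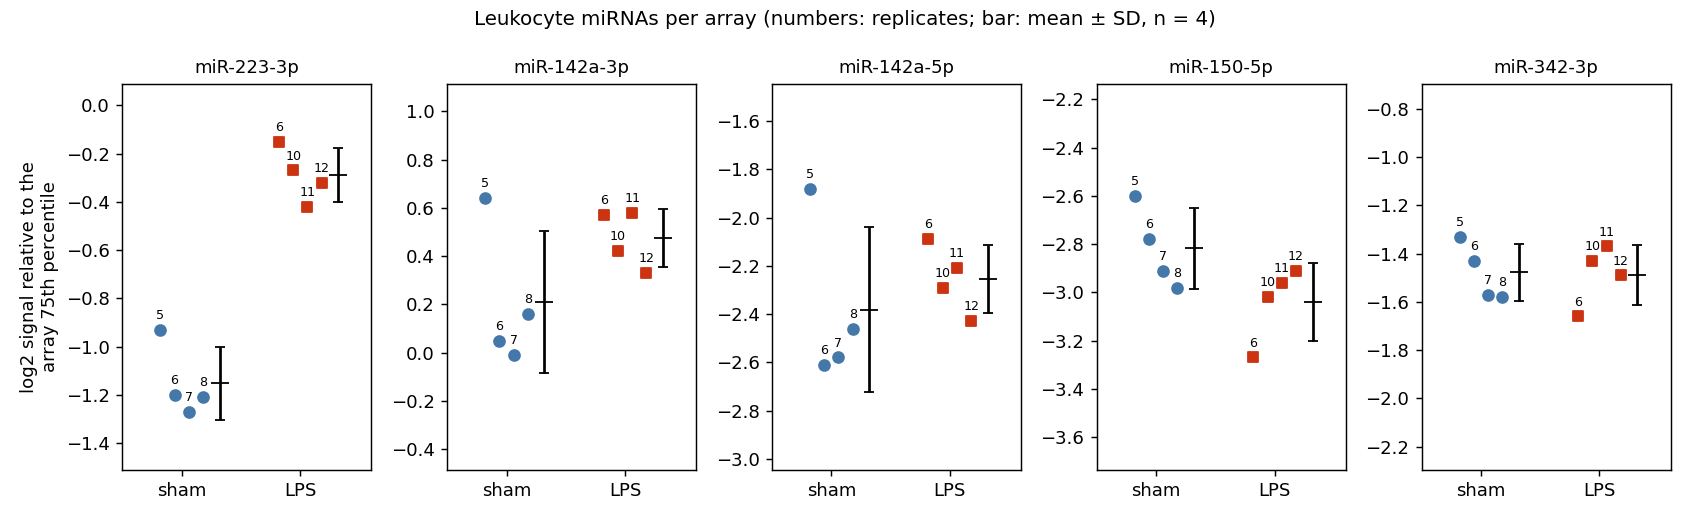
Log2 signal after division by the array's 75th percentile (vertical axis, same span in each panel) of the 5 detected members in 4 sham (circles) and 4 LPS (squares) kidneys, each point labelled with its replicate, with mean ± SD. For miR-223-3p the LPS points lie at -0.42 to -0.15 above the sham points at -1.27 to -0.93, and for the other 4 miRNAs the groups overlap.

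MiR-142a-3p, the pan-leukocyte member, gave 0.64, 0.05, -0.01 and 0.16 in sham replicates 5, 6, 7 and 8, and 0.57, 0.42, 0.58 and 0.33 in LPS replicates 6, 10, 11 and 12. Sham replicate 5 was the highest of all 8 arrays, while the other 3 sham kidneys lay below every LPS kidney. The difference of 0.26 ± 0.14 (SE, 95% interval -0.06 to 0.59) did not pass the test (limma adjusted p = 0.171, sham SD 0.29, LPS SD 0.12, n = 4 per group). Without sham replicate 5 it was 0.41 and passed (adjusted p = 0.00621). The 2 probes differed by 0.27 and 0.25.

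The other arm, miR-142a-5p, repeated this pattern at its own level. It gave -1.88, -2.61, -2.58 and -2.46 in sham replicates 5, 6, 7 and 8, and -2.09, -2.29, -2.21 and -2.43 in LPS replicates 6, 10, 11 and 12, again with sham replicate 5 the highest of all 8 arrays. Its difference was 0.13 ± 0.16 (SE, 95% interval -0.24 to 0.50, limma adjusted p = 0.558), and 0.13 for each of the 2 probes. Without sham replicate 5 it was 0.30 and passed (adjusted p = 0.0329), whereas with scaling to the labelling spike-ins it was -0.015. Both probes were above background on all 8 arrays, but at low raw signals of 37.4 to 66.7 and 39.7 to 64. The brighter probe of miR-150-5p was at a like level, 41.0 to 58.7.

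Because both arms come from 1 hairpin, their ratio asks whether they moved alike. The log2 ratio of the 3p over the 5p probes was 2.52, 2.66, 2.56 and 2.62 in sham replicates 5, 6, 7 and 8, and 2.66, 2.71, 2.79 and 2.76 in LPS replicates 6, 10, 11 and 12. The groups touched at 2.66, and the shift of 0.14 ± 0.04 (SE) did not pass (2-sided exact permutation p = 0.0571, n = 4 per group, only this locus having both arms detected). With normexp the shift was 0.19 and the groups separated (exact permutation p = 0.0286), the smallest p that 4 against 4 arrays allow. The normexp offset of 50 was as large as the raw signals of the 5p probes, 37.4 to 66.7 and 39.7 to 64. With it the 5p arm differed by 0.019. With quantile normalization the shift of the 3p over 5p ratio was 0.020 (exact permutation p = 0.714).

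MiR-150-5p, the mature lymphocyte member, gave -2.60, -2.78, -2.91 and -2.98 in sham replicates 5, 6, 7 and 8, and -3.27, -3.02, -2.96 and -2.91 in LPS replicates 6, 10, 11 and 12. LPS replicate 6 was the lowest and the groups overlapped. The difference of -0.22 ± 0.11 (SE, 95% interval -0.47 to 0.02) did not pass the test (limma adjusted p = 0.126). It was negative in all 25 alternatives and passed in 1 of them, scaling to the labelling spike-ins (-0.37, adjusted p = 0.0103), where the median of all tested miRNAs was -0.23 in place of -0.08. It was smaller with normexp (-0.11), quantile normalization (-0.12), cyclic loess (-0.14) and no scaling (-0.15), and without LPS replicate 6 (-0.15).

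The miR-150-5p signal was close to background. Its brighter probe was above background on all 8 arrays at raw signals of 41.0 to 58.7, and differed by -0.18. The dimmer probe, at 11.9 to 20.5, was above background on 2 of 8 arrays, and its spots varied by 21.5% within an array.

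MiR-342-3p, the product of the Evl locus, gave -1.33, -1.43, -1.57 and -1.58 in sham replicates 5, 6, 7 and 8, and -1.66, -1.43, -1.37 and -1.49 in LPS replicates 6, 10, 11 and 12. The 2 ranges coincided almost entirely. The difference was -0.01 ± 0.08 (SE, 95% interval -0.20 to 0.18, limma adjusted p = 0.933), and its sign changed between alternatives, all without a call. The 2 probes differed by -0.03 and 0.01.

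In all, 1 of the 5 tested members rose and 0 fell (limma, adjusted p below 0.05). Of all 338 tested miRNAs, 40.2% changed, 14.8% upward and 25.4% downward, so a count of 1 in 5 does not set these miRNAs apart from the rest. The split depended on scaling: 50 rose and 86 fell here, against 57 and 49 without scaling, 55 and 53 with the percentile over all probes, 65 and 66 with cyclic loess, 53 and 91 with quantile normalization and 34 and 150 with the spike-ins. The groups did not overlap for 1 of the 5 members and for 37.0% of the tested miRNAs. The median difference was 0.13 over the 5 members and -0.08 over all tested miRNAs.

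**Figure D2:**
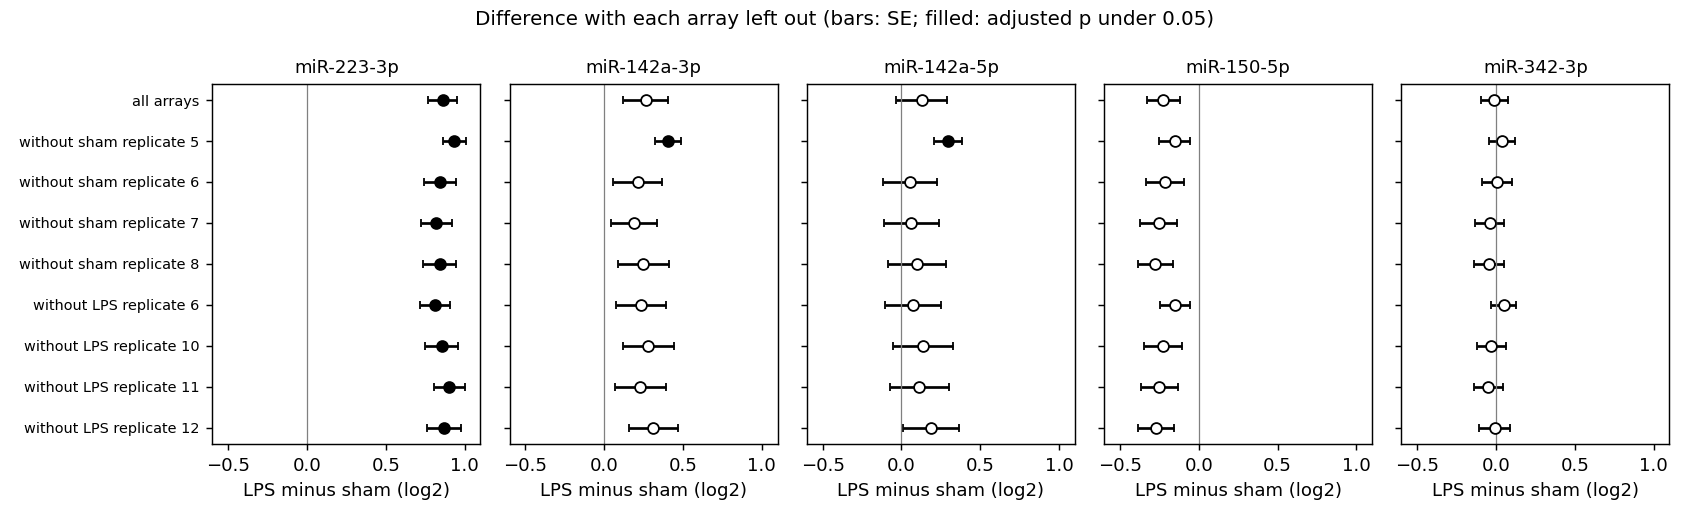
Difference LPS minus sham (log2, horizontal axis, bars SE) for the 5 detected members with all arrays and with each array left out (rows), filled where the adjusted p was below 0.05. MiR-223-3p is filled in every row, while the arms of miR-142a are filled only without sham replicate 5, at 0.41 and 0.30.

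Setting the lead arms against each other on the same array removes any factor common to an array. Ratios of miR-223-3p to each of the other 3 lead arms rose in LPS kidneys, and that of miR-150-5p to miR-342-3p fell, while the ratios of miR-142a-3p to either lymphocyte miRNA did not pass. These 6 ratios were compared by 2-sided exact permutation with n = 4 per group, which allows no p below 0.0286, and adjusted over the 6. Being formed from 4 miRNAs, they are not independent of each other. The 3 ratios of miR-223-3p each contain its own difference of 0.86.

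The log2 ratio of miR-223-3p to miR-150-5p, myeloid to lymphocyte, was 1.68, 1.58, 1.64 and 1.77 in sham replicates 5, 6, 7 and 8, and 3.12, 2.75, 2.54 and 2.59 in LPS replicates 6, 10, 11 and 12. Sham kidneys lay close together, and every LPS kidney was above them. The shift of 1.08 ± 0.14 (SE), a 2.12-fold rise, was the largest of the 6 (exact permutation p = 0.0286, adjusted p = 0.0429).

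The ratio of miR-223-3p to miR-342-3p was 0.41, 0.23, 0.30 and 0.37 in sham replicates 5, 6, 7 and 8, and 1.51, 1.15, 0.95 and 1.17 in LPS replicates 6, 10, 11 and 12. It rose by 0.87 ± 0.12 (SE, 1.83-fold, exact permutation p = 0.0286, adjusted p = 0.0429), again without overlap. Both ratios were highest in LPS replicate 6, the kidney with the most miR-223-3p and the least miR-150-5p and miR-342-3p.

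The ratio of miR-223-3p to miR-142a-3p, myeloid to pan-leukocyte, was -1.57, -1.25, -1.26 and -1.37 in sham replicates 5, 6, 7 and 8, and -0.72, -0.70, -1.00 and -0.65 in LPS replicates 6, 10, 11 and 12. It rose by 0.60 ± 0.11 (SE, 1.51-fold, exact permutation p = 0.0286, adjusted p = 0.0429). Sham replicate 5, which held the most miR-142a-3p, was here the lowest sham kidney, and without it the shift was 0.53.

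The ratio of miR-150-5p to miR-342-3p was -1.27, -1.35, -1.34 and -1.40 in sham replicates 5, 6, 7 and 8, and -1.61, -1.60, -1.59 and -1.42 in LPS replicates 6, 10, 11 and 12. It fell by 0.21 on the log2 scale (SE 0.05, exact permutation p = 0.0286, adjusted p = 0.0429), and the nearest kidneys of the 2 groups, at -1.40 and -1.42, were hardly separated. Quantile normalization left a shift of -0.05 with adjusted exact permutation p = 0.571, and the brightest probes gave -0.19 with 0.0686. The dimmer probe of miR-150-5p, mostly below background, enters this ratio.

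The ratio of miR-142a-3p to miR-150-5p shifted by 0.49 ± 0.16 (SE, exact permutation p = 0.0571, adjusted p = 0.0686) and touched at 3.24 in sham replicate 5 and LPS replicate 12. That to miR-342-3p shifted by 0.27 ± 0.14 (SE, exact permutation p = 0.143, adjusted p = 0.143). Both were higher in sham replicate 5 than in the other sham kidneys, at 3.24 against 2.83 to 3.14 and 1.97 against 1.48 to 1.74.

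Adjusted p-values of these ratios depend on how many of the 6 reach the smallest possible p. Where the miR-150-5p to miR-342-3p ratio did not, the 3 miR-223-3p ratios kept their direction with adjusted exact permutation p = 0.0571. This was so with quantile normalization, with the brightest probe, and on leaving out any 1 of the 4 sham kidneys, and then 0 of the 6 ratios passed. Without a sham kidney the values of the miR-150-5p to miR-342-3p ratio still did not overlap between groups. Leaving out 1 LPS kidney kept 4 or 5 of 6.

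**Figure D3:**
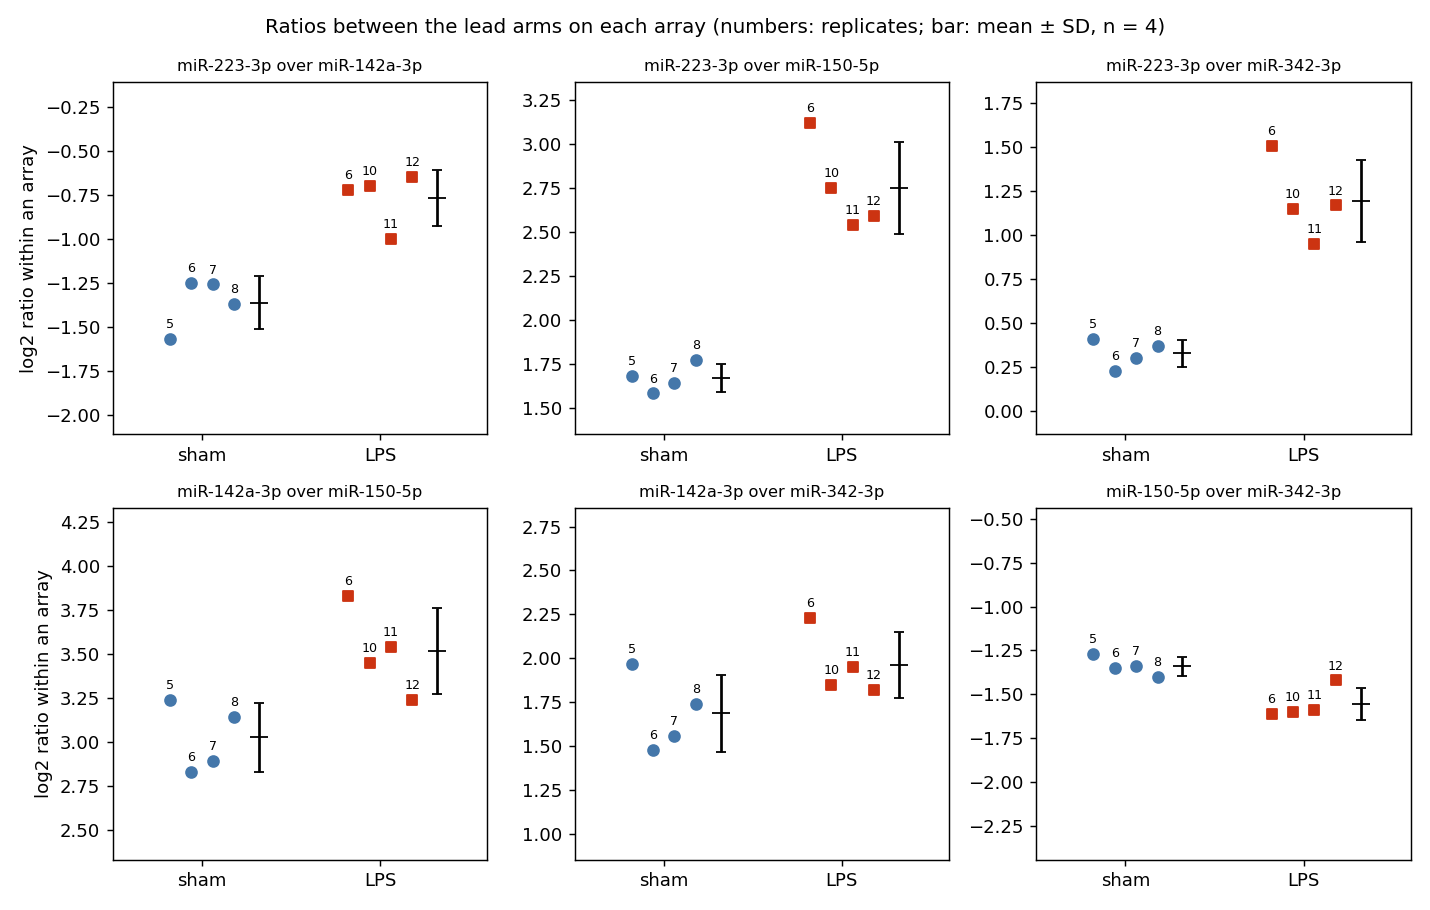
Log2 ratio of 2 lead arms on the same array (vertical axis, same span in each panel) in 4 sham (circles) and 4 LPS (squares) kidneys, each labelled with its replicate, with mean ± SD. The 3 panels of miR-223-3p separate the groups, most widely for the ratio to miR-150-5p, with sham at 1.58 to 1.77 and LPS at 2.54 to 3.12. For the ratio to miR-142a-3p the nearest sham and LPS kidneys lie at -1.25 and -1.00. MiR-150-5p over miR-342-3p separates the groups narrowly.

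Within groups, which members deviated together from their group mean differed between arrays. In LPS replicate 11, miR-142a-3p (0.10), miR-150-5p (0.08) and miR-342-3p (0.11) lay above the LPS mean and miR-223-3p (-0.13) below it. Sham replicate 5 had the highest sham value for all 5 members, which was so for 37.6% of all tested miRNAs. It stood above the sham mean by 0.43 for miR-142a-3p, 0.50 for miR-142a-5p and 0.22 for miR-223-3p, against 0.21 for miR-150-5p and 0.14 for miR-342-3p. In LPS replicate 6 the members parted: miR-223-3p was 0.14 and miR-142a-3p 0.09 above the LPS mean, while miR-150-5p was -0.23 and miR-342-3p -0.17 from it.

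Sham replicate 5 and LPS replicate 6 lay in the same column of the slide. With slide column as a block, the differences were unaltered by construction, miR-223-3p kept its call (limma adjusted p = 0.000557), and the arms of miR-142a were still not called (adjusted p = 0.150 for the 3p and 0.410 for the 5p arm).

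**Figure D4:**
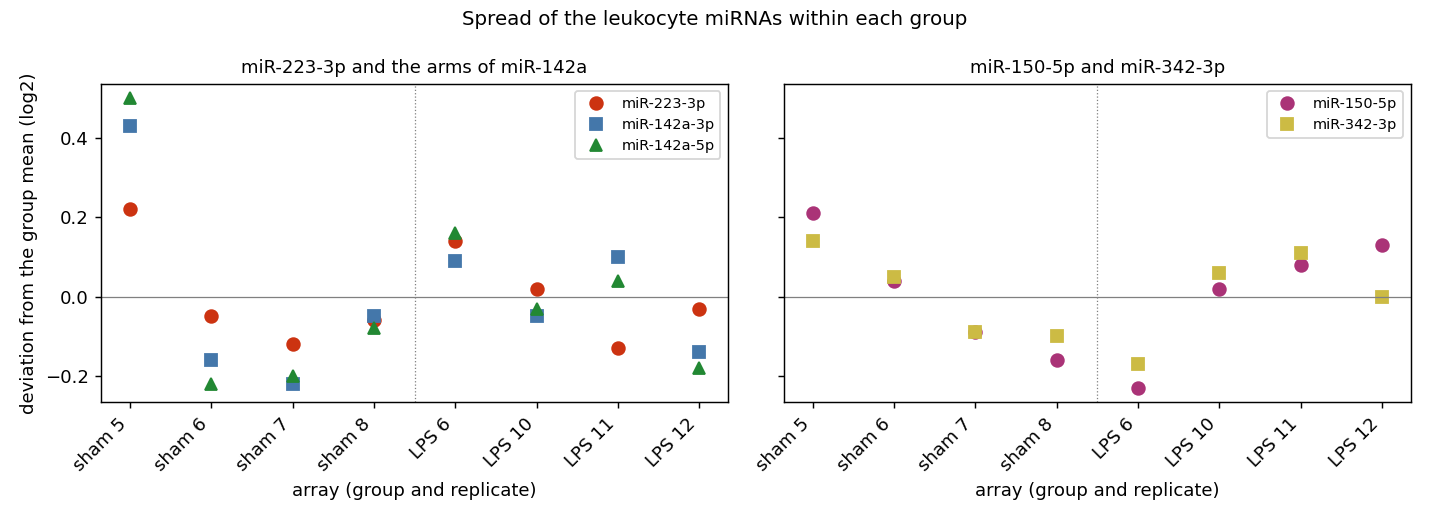
Deviation of each array from its group mean (log2, vertical axis) for miR-223-3p and the arms of miR-142a (left) and for miR-150-5p and miR-342-3p (right), by group and replicate. Sham replicate 5 lies 0.43 and 0.50 above the mean for the arms of miR-142a, and LPS replicate 6 lies above the mean on the left and below it on the right.

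The tested miRNAs whose levels over the 8 arrays were most like each lead arm are given as a description by Pearson correlation, which includes the group difference, followed by the value with group means removed. For miR-223-3p these were miR-146b-5p (0.99, then 0.91), miR-574-5p (0.99, then 0.84) and miR-1187 (0.99, then 0.86), which were higher by 1.09, 1.06 and 1.01. MiR-146b is known as a restraint on NF-κB signalling. For miR-142a-3p they were miR-7216-5p (0.94, then 0.95), miR-5128 (0.93, then 0.93) and miR-6984-5p (0.91, then 0.87), which differed by 0.67, 0.73 and 0.25. Like miR-142a-3p they varied mostly among sham kidneys, with SDs of 0.45, 0.51 and 0.27 in sham and 0.11, 0.06 and 0.05 in LPS.

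For miR-150-5p the most alike was miR-181d-5p (0.90, then 0.89), followed by miR-3068-3p (0.81, then 0.67) and miR-1198-5p (0.78, then 0.60). For miR-342-3p they were miR-200a-5p (0.80, then 0.88), miR-181c-5p (0.78, then 0.78) and miR-210-3p (0.77, then 0.78). The miR-181 family is known from lymphocyte development but is also made in many other tissues. All these points share the same 8 arrays and their scaling.

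Of 9 listed myeloid miRNAs 3 were tested and 2 rose, miR-223-3p and miR-155-5p, which is induced in activated macrophages (1.68 ± 0.08 SE, limma adjusted p = 2.25e-06). Of all tested miRNAs 14.8% rose, and 3 tested miRNAs are too few to set the list apart by a count. For miR-146a-5p, which like miR-146b restrains NF-κB signalling, the difference was 0.18 with an adjusted p of 0.166. The macrophage miR-511 and miR-147 (both arms of each) and miR-187-3p were not well above background on any array. The summed level of the myeloid list was 0.40 to 0.68 in sham and 1.19 to 1.34 in LPS kidneys on the log2 scale, and counts were the same under all 5 other scalings. Both the sum and the counts include miR-223-3p, so they are not separate from the rise of that member.

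Of 8 listed lymphocyte miRNAs, miR-150 and miR-342 among them, 6 were tested and 2 fell, miR-181b-5p by 0.45 (SE 0.08, limma adjusted p = 0.00334) and miR-181d-5p by 0.28 (SE 0.08, adjusted p = 0.0200). MiR-181b-5p passed in all 25 alternatives and miR-181d-5p in 18 of them. MiR-181a-5p (-0.02) and miR-181c-5p (-0.03) did not pass. The list's median was -0.13, against -0.08 over all tested miRNAs, and its summed level ran from 1.24 to 1.42 in sham and from 1.04 to 1.27 in LPS kidneys. The 2 of 6 that fell stand beside 25.4% of all tested miRNAs, and the list is not set apart by this count. The count was 1 of 6 under 4 of the other scalings and 3 of 6 with the spike-ins, where 150 of all 338 fell.

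MiRNAs known from other cells of the kidney were read beside these. Red-cell miR-451a gave a log2 signal of 0.53, -1.09, -0.48 and 1.54 in sham replicates 5, 6, 7 and 8, and 3.68, 0.90, 3.16 and 2.48 in LPS replicates 6, 10, 11 and 12. Its order differed from that of the leukocyte miRNAs in sham, where replicate 8 and not 5 was highest, while LPS replicate 6 was highest for both it and miR-223-3p. Of 5 red-cell miRNAs 2 were tested and both rose, with overlapping groups. The call held for miR-451a in 20 of 25 alternatives and for miR-144-3p in 18 of 24, and the list's summed level was -0.95 to 1.66 in sham and 1.03 to 3.80 in LPS kidneys. Of 6 kidney tubule miRNAs 3 fell, with a median of -0.15 against -0.08 over all tested miRNAs. Their summed level was 6.09 to 6.20 in sham and 5.94 to 6.15 in LPS kidneys. Of all tested miRNAs 14.8% rose and 25.4% fell. Lists of 2 red-cell and 6 tubule miRNAs are too small to be set apart by a count. Tubule counts depended on scaling, from 0 without scaling to 4 with quantile normalization or the spike-ins. Neither of 2 endothelial miRNAs passed, though 1 fell with quantile normalization (summed level 4.13 to 4.23 in sham, 4.10 to 4.27 in LPS). The part of red cells, of tubule loss or of blood content in the leukocyte values was not tested.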

How the data were processed

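MicroRNA arrays of 8 kidney samples were used, 4 per group. The spot intensity values were deposited by the authors as output of Agilent Feature Extraction 12.0.3.1 (per the submitters' processing notes), background-subtracted and spatially detrended per the file headers, with no scaling between arrays. A table of linear ratios per miRNA, deposited by the authors, served only as an alternative; its values are centred per miRNA, and where its array factors come from is not stated in the files or labels.

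Outlier spots were left out, spots of a probe averaged, each array divided by its 75th percentile over 551 probes above background on all arrays, and probes of a miRNA summed. Sums were floored at -4.68 and log2-transformed. For the 338 tested miRNAs, group means were compared in R 4.3.3 by limma 3.58.1, using lmFit followed by eBayes without covariates (2-sided), and p-values were adjusted by Benjamini-Hochberg over all of them. Ratios were compared by exact permutation. The number of arrays limits the precision. The code was tested on simulated data.

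The members and lists were chosen with earlier results of these data known. Named were all members, their probes, the 3 tested miRNAs most like each lead arm, and tested members of the marker lists. Alternatives covered scaling, background, probe summary, filter, floor, variance model, slide column, the deposited table and leaving out each array, with the tested set kept except for the filters.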

Additional observations from a re-analysis of the deposited data

Results flagged for a closer look

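Groups of 4 values were examined for a value apart from the rest, 24 in all (5 detected members and 7 ratios, LPS and sham). In 1 of them such a value was found, and about 1.2 would be so by chance. For the log2 ratio of miR-150-5p to miR-342-3p, LPS replicate 12 was at -1.42 and the other LPS replicates at -1.61 to -1.59.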

How the results depend on the processing

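The rise of miR-223-3p passed in all 25 alternatives. MiRNAs called changed numbered 136, but 80 with slide column as a block, and 85 to 152 on leaving out 1 array. Members called changed were 2 with scaling to the spike-ins, where miR-150-5p was -0.37 and miR-142a-5p -0.015, and 1 to 3 on leaving out 1 array, 3 without sham replicate 5. MiR-342-3p turned positive, uncalled, at 0.046 (percentile over all probes), 0.066 (no scaling), 0.033 (cyclic loess), 0.007 (brightest probe) and 0.024 (the authors' deposited table). Of the 6 ratios, 0 passed with quantile normalization (0.41, 0.79 and 0.74 for miR-223-3p to miR-142a-3p, miR-150-5p and miR-342-3p, and -0.051 for miR-150-5p to miR-342-3p) or the brightest probe (0.63, 1.09, 0.90 and -0.19 in that order), with adjusted exact permutation p of 0.0571 for the first 3. With normexp, 1 of 1 arm ratio passed (0.19), and 4 of the 6 lead-arm ratios still passed at smaller shifts, 0.37 for miR-223-3p to miR-142a-3p, 0.69 to miR-150-5p, 0.61 to miR-342-3p and -0.085 for miR-150-5p to miR-342-3p. Leaving out 1 array gave 0 to 5 passing ratios, and 0.19 to 0.41 for miR-142a-3p, 0.053 to 0.30 for miR-142a-5p, -0.28 to -0.15 for miR-150-5p and -0.048 to 0.048 for miR-342-3p. For ratios it gave 0.53 to 0.67 (miR-223-3p to miR-142a-3p), 0.96 to 1.15 (to miR-150-5p), 0.77 to 0.95 (to miR-342-3p), 0.38 to 0.58 (miR-142a-3p to miR-150-5p) and -0.26 to -0.19 (miR-150-5p to miR-342-3p). The cause was not tested. No paired analysis was possible because the labels' replicate numbers are shared by the groups for number 6 only, and the block used was the position on the slide. MiR-150-5p, with 1 of 2 probes mostly below background, is limited by its signal.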
